A study of Homo sapiens with 64 samples.

Results

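The Tribbles family of pseudokinases was followed in BEAS-2B, a virus-transformed line of human bronchial epithelium, through every probe set of the array that the platform annotation assigns to TRIB1, TRIB2 or TRIB3. These were 7 of 54675 probe sets, and they stood for 3 of the 19775 genes with a single symbol. The set of 64 arrays held 16 groups of 4 replicates. Cells were given indacaterol with GSK 256066 (both at 10 nM, called Ind+GSK below), indacaterol alone (10 nM), GSK 256066 alone (10 nM, called GSK below) or vehicle, each for 1, 2, 6 or 18 h. All groups had been grown in a serum-free keratinocyte medium with epidermal growth factor and bovine pituitary extract, and then in that medium with no supplement named before treatment. Indacaterol is a long-acting agonist of the beta2-adrenoceptor, which raises cyclic AMP, and GSK 256066 inhibits phosphodiesterase 4, an enzyme that degrades it. The series studies 1 cell line, and no label states that replicates came from separate cultures, so the p-values below measure the spread between these arrays.

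Tribbles proteins have a kinase-like fold with little or no catalytic activity and act as scaffolds. The tail of TRIB1 and TRIB2 recruits the ubiquitin ligase COP1 to the transcription factor C/EBPα, which is then degraded, and the tail also holds a site that binds the MAP kinase kinase MEK1. TRIB3 is best known as a target of ATF4 and CHOP in the response to stress of the endoplasmic reticulum and to a lack of amino acids, and it has been described as a binding partner of the kinase AKT. TRIB2 has been described in melanoma as a repressor of the forkhead factor FOXO3.

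The genes were chosen on measured values of these arrays: TRIB1 had the greatest F of 19775 genes for a change over time of the difference between indacaterol and vehicle arrays. Its F was 32.4, followed by 28.5 for SGK1 and 23.7 for EDN1 just below it in the same order. That contrast is therefore given only as a description. The tests compared arrays outside it, the Ind+GSK arrays set against the GSK arrays at each time. They came from a limma model over all 64 arrays with Benjamini-Hochberg adjustment over 19775 genes. Its estimate of spread included the vehicle and indacaterol arrays, so the tests were not fully independent of that choice. A gene was called at an adjusted p under 0.05. For TRIB1, comparisons that share vehicle or indacaterol arrays with the rule are likewise described and not tested.

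TRIB2 (gene ID 28951) lies on chromosome 2 of GRCh38.p14, from 12716936 to 12742734, and TRIB3 (gene ID 57761) on chromosome 20, from 380760 to 397559. The promoter of TRIB2 is shown because its greatest difference between Ind+GSK and GSK came late, at 6 h. That difference was called only in fits with the replicate number as a block. These are the 250 bases before its annotated start, chr2:12716686-12716935, plus strand, from RefSeq (GRCh38.p14), with a forkhead motif (TGTTTAC) and GC boxes (GGGCGG, on either strand, overlaps included) in capitals.
TRIB2 promoter: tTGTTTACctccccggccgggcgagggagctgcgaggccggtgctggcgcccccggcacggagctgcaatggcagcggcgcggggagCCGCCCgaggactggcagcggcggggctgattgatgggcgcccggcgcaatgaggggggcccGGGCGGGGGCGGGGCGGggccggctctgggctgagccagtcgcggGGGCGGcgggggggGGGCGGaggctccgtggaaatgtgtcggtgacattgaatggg
The TRIB2 window is 76.8% G and C. It held 1 forkhead motif, starting at base -249 from the start, against 2.98% of 35116 promoter windows of the same length with a match, and 6 GC boxes, against 42.6% of windows with at least 1. It held no cyclic AMP response element (TGACGTCA, in 1.65% of windows) and no TGACG core (21.2%). The 3 windows listed for TRIB3 overlap, starting at 381045, 381056 and 381093 on chromosome 20, so they are not independent. Each held the same 2 GC boxes. None held a match to the forkhead motif, the response element, its core or the C/EBP-ATF motif TGATGNAA, which 3.14% of windows held. These are matches of letters and say nothing of a factor's binding, and the windows were searched on both strands.

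The arrays were checked against cell type markers. The simple keratins KRT8 (3048 to 6726 units of signal) and KRT18 (5118 to 9853) were bright on all 64 arrays. Of 5 measured leukocyte markers, PTPRC stayed between 14.8 and 42.4, HLA-DRA between 20.3 and 63.4 and CD3E between 59.2 and 111. LYZ was higher, from 198 to 514. CD14 ran from 24.9 to 289, with medians of 185 on the replicate 3 arrays and 71.8 on the others. The epithelial markers EPCAM and CDH1 had medians of 181 and 1104 on the replicate 3 arrays but 68.0 and 244 on the others. The 16 arrays numbered replicate 3 stood apart from the other 48: the summed signal of 8 measured epithelial markers ran from 321594 to 472416 on them, against 8808 to 19984 elsewhere, and 4 of the 8 markers were above all other arrays on every replicate 3 array. The basal keratin KRT14 had a median of 321210 on replicate 3 arrays and 23.7 on the others, and made up most of the sum on replicate 3 arrays. KRT8 (medians of 6348 on replicate 3 arrays and 4821 on the others) and KRT18 (8336 and 7908) differed far less. The sums of 8 fibroblast markers overlapped, at 12218 to 16214 on replicate 3 arrays and 12898 to 17507 on the others. COL1A1, the brightest of them, was at 5431 to 10841 on all arrays. COL1A2 (84.5 to 182), COL3A1 (38.9 to 160), DCN (94.4 to 243) and LUM (58.2 to 103) were far lower on all arrays and added little to the sums. Of these 8 markers, PDGFRB and THY1 were below all other arrays on every replicate 3 array (medians of 959 and 765 on replicate 3 arrays, against 2035 and 1584 on the others), and FBLN1 was above.

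**Figure D1:**
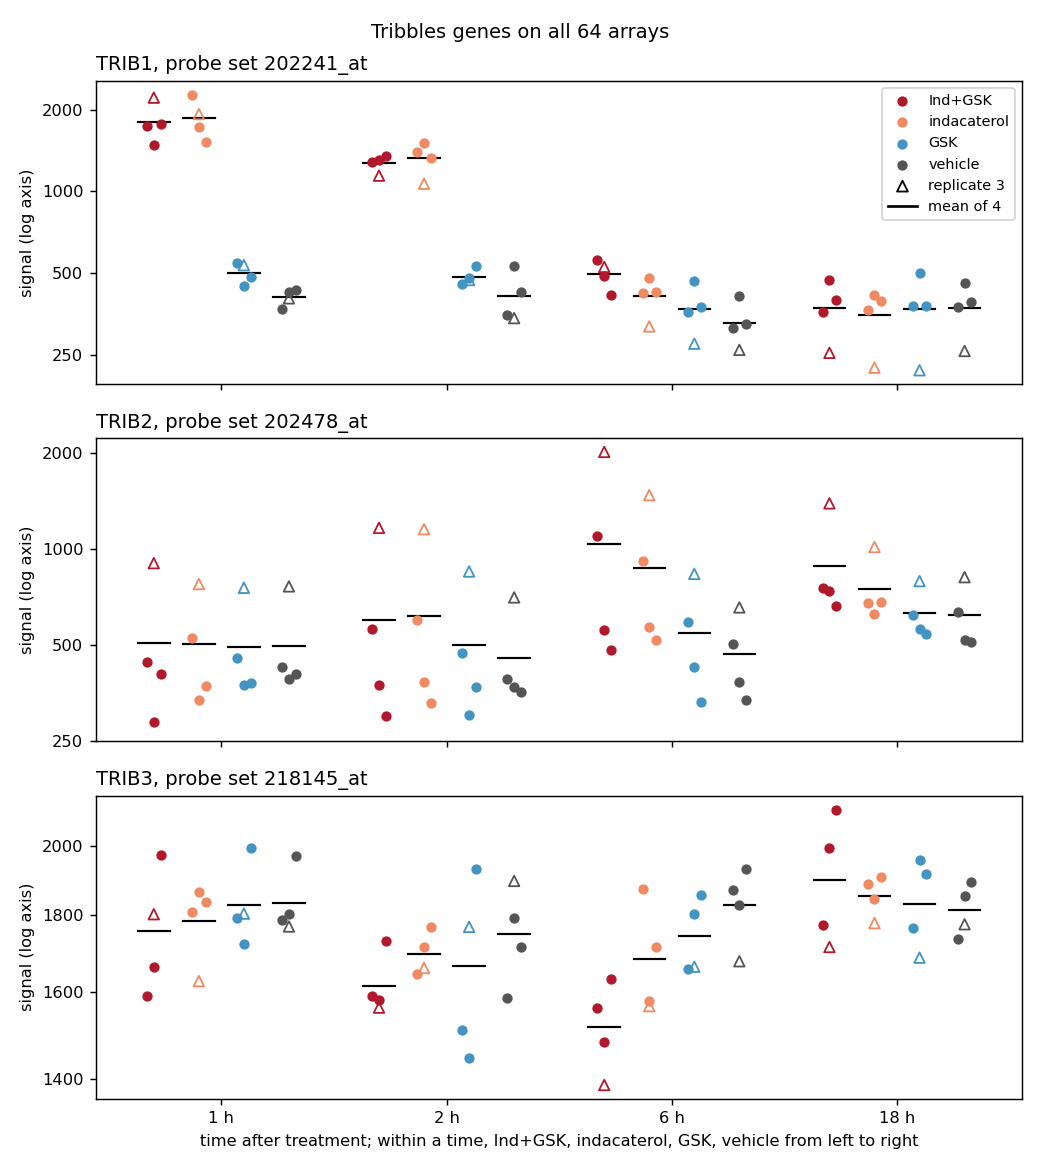
Signal of the brightest probe set of TRIB1, TRIB2 and TRIB3 (log axis) on each of 64 arrays, by time and treatment, with bars at the mean of 4 arrays and open triangles for replicate 3. TRIB1 is high with Ind+GSK and indacaterol at 1 and 2 h, and TRIB3 stays between 1386 and 2116. TRIB2 is highest in replicate 3 in 16 of 16 groups, a pattern that was not counted over all genes.

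TRIB1 (gene ID 10221, chromosome 8 of GRCh38.p14, from 125430358 to 125438403) rose early and briefly with Ind+GSK relative to GSK. At 1 h the 4 Ind+GSK arrays read 1736, 1479, 2212 and 1772 units (replicates 1 to 4), against 544, 446, 534 and 484 on the GSK arrays. The groups did not overlap, which held upward for 0.541% of all genes at this time. The mean was 1799.7 ± 304 in Ind+GSK cells and 502 ± 45.6 in GSK cells (SD, n = 4 each), a ratio of 3.58. On the log2(signal + 16) scale the difference was 1.80 ± 0.19 (SE), with an adjusted p of 8.23e-09 from limma. TRIB1 was 1 of 28 genes called at 1 h (0.142%), 27 of them higher with Ind+GSK (0.137%), and its difference was the 9th in size among all 19775 genes. The ratio between arrays of the same replicate number was 3.19, 3.31, 4.14 and 3.66, so that all 4 arrays gave a ratio above 3. Replicate numbers did not pair these 1 h arrays.

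At 2 h TRIB1 read 1280, 1301, 1142 and 1345 in Ind+GSK cells, against 456, 478, 471 and 529 in GSK cells. The groups again did not overlap, which held upward for 2.53% of genes, and each ratio of same-numbered arrays lay between 2.42 and 2.81. The log2 difference was 1.36 ± 0.19 (SE, n = 4 each; limma, adjusted p = 3.95e-06), at a time when 183 genes (0.925%) were called, 0.85% being higher. With the replicate number as a block, which paired the arrays at 2, 6 and 18 h but not at 1 h, both early differences stayed called (0.48% and 3.46% of all genes at 1 and 2 h). Over 11 other scalings, filters and blocks the difference ran from 1.71 to 1.85 at 1 h and from 1.27 to 1.40 at 2 h, with no adjusted p above 4.32e-05 at either time. When any array or replicate number was left out, the highest adjusted p was 0.000353 at 1 h and 0.00327 at 2 h.

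At 6 h the TRIB1 groups overlapped. The Ind+GSK arrays read 560, 486, 527 and 416, against 359, 467, 275 and 374 on the GSK arrays. The Ind+GSK array was higher in 4 of 4 same-numbered pairs, with ratios from 1.04 to 1.92, and the log2 difference was 0.43 ± 0.19 (SE; 95% interval 0.06 to 0.80), which was not called (limma, adjusted p = 0.66, and 0.147 with the replicate block). At 18 h the readings were 358, 471, 254 and 399 with Ind+GSK and 378, 502, 219 and 377 with GSK. The 18 h difference was 0.03 ± 0.19 (SE; interval -0.35 to 0.40; adjusted p = 1.00), with the Ind+GSK array higher in 2 of 4 pairs. No gene was called at 18 h by limma without the block, although 406 had an unadjusted p under 0.05, and 19 (0.0961%) were called with the block.

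The TRIB1 difference between Ind+GSK and GSK changed over the 4 times. Relative to 1 h it changed by -0.44 ± 0.26 log2 units by 2 h, -1.37 ± 0.26 by 6 h and -1.77 ± 0.26 by 18 h (SE), and limma called the steps to 6 and 18 h (adjusted p = 0.0146 and 0.000294). The moderated F-test over time gave an adjusted p of 8.88e-05, the 4th greatest F of all genes, where 15 genes (0.0759%) were called, and 3.91e-07 with the replicate block (1.31% of genes called). The F-test call was lost without replicate 1 (adjusted p = 0.0622) and without replicate 4 (0.173), and it stayed without replicate 2 or 3 and without each of the 32 single arrays. Probe set 239818_x_at gave an adjusted p of 0.000527 over 54613 probe sets.

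Indacaterol given without the inhibitor showed the same order of times. TRIB1 read 2265, 1731, 1924 and 1516 in indacaterol cells at 1 h, against 368, 427, 403 and 432 in vehicle cells. At 2 h it read 1389, 1502, 1066 and 1327 with indacaterol, against 350, 529, 341 and 426 with vehicle. As a description of the contrast that chose the gene, the groups did not overlap at either time. This held upward for 2.36% of all genes at 1 h and 2.84% at 2 h. At 6 h the means were 411 ± 67.8 with indacaterol and 328 ± 62.8 with vehicle, and at 18 h 350 ± 85.9 with indacaterol and 370 ± 82.9 with vehicle (SD, n = 4 each). In this contrast, which chose the gene, the log2 differences were 2.13, 1.66, 0.31 and -0.09 at 1, 2, 6 and 18 h (SE 0.19 each). Ind+GSK against the same vehicle arrays gave 2.09, 1.60, 0.58 and 0.00, and these differences share their vehicle arrays with those of indacaterol.

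**Figure D2:**
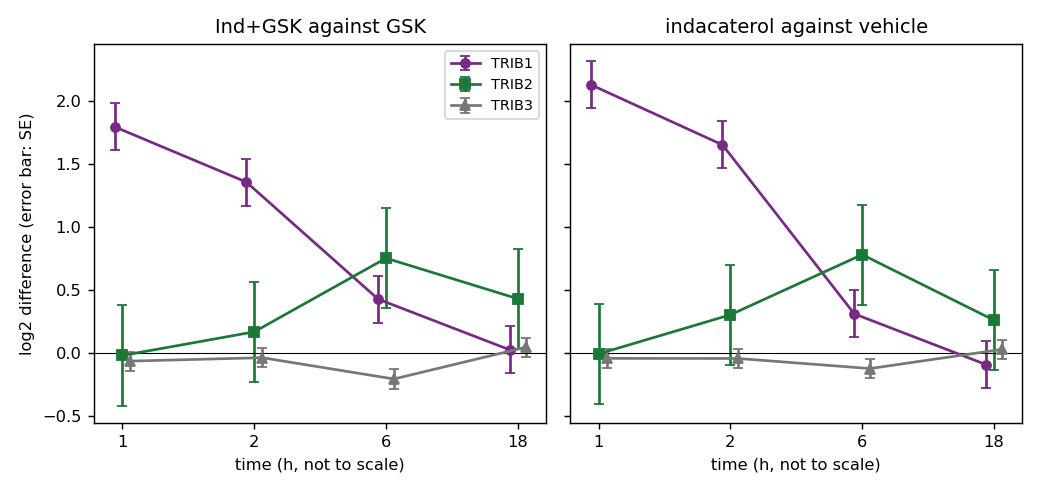
Log2 difference of TRIB1, TRIB2 and TRIB3 at 1, 2, 6 and 18 h, with SE bars, for Ind+GSK against GSK on the left and indacaterol against vehicle on the right. TRIB1 is greatest at 1 h (1.80 and 2.13), TRIB2 at 6 h (0.76 and 0.78), and TRIB3 stays between -0.20 and 0.05 in both panels.

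Adding GSK to indacaterol left TRIB1 at similar levels at 1 and 2 h. Ind+GSK minus indacaterol was -0.05 at 1 h, -0.05 at 2 h, 0.27 at 6 h and 0.08 at 18 h on the log2 scale (SE 0.19 each). The intervals ran from -0.42 to 0.33 at 1 h and from -0.10 to 0.64 at 6 h. The Ind+GSK array was higher in 2, 2, 3 and 3 of 4 same-numbered pairs, and the ranges overlapped at each time. Replicate numbers did not pair these arrays at 1 h. Across the whole array limma called 0 genes (0%) for Ind+GSK against indacaterol at each of the 4 times, with 250, 254, 346 and 306 at an unadjusted p under 0.05.

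GSK alone and vehicle differed less in TRIB1 readings than Ind+GSK and GSK did at 1 and 2 h. At 1 h all 4 GSK arrays lay above all 4 vehicle arrays (446 to 544 against 368 to 432), which held upward for 1.75% of all genes. The same groups overlapped on probe set 239818_x_at. The log2 difference was 0.29 ± 0.19 at 1 h, 0.24 ± 0.19 at 2 h, 0.15 ± 0.19 at 6 h and -0.03 ± 0.19 at 18 h (SE, n = 4 each), as a description with no test. The GSK array was higher in 4, 3, 4 and 2 of 4 same-numbered pairs, though replicate numbers did not pair these arrays at 2 h.

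In GSK cells the TRIB1 mean was lower at 6 and 18 h than at 1 and 2 h. It was 502 ± 45.6 at 1 h, 484 ± 31.6 at 2 h, 369 ± 79.0 at 6 h and 369 ± 116 at 18 h (SD, n = 4 each). The change over time was not called by limma's moderated F-test (adjusted p = 0.146, at a time course in which 7.02% of genes were called), but it was with the replicate block (adjusted p = 0.0189, 22.9% of genes), and replicate numbers paired the GSK arrays over time. With the block on 3 replicate numbers it was called without replicate 2 (adjusted p = 0.00394) and not without replicate 1, 3 or 4 (0.143, 0.200 and 0.117).

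The other TRIB1 probe sets were of unequal use. Probe set 239818_x_at, with a mean signal of 117, followed the brightest one (202241_at, mean 695) with r = 0.98 over 64 arrays, as a description across arrays that share groups. Its difference between Ind+GSK and GSK was 1.66 ± 0.17 at 1 h and 1.32 ± 0.17 at 2 h (SE, n = 4 each; limma over 54613 probe sets, adjusted p = 9.19e-09 and 1.98e-06). For GSK against vehicle it gave 0.22, 0.09, 0.02 and 0.03 at 1, 2, 6 and 18 h (SE 0.17 each). Probe set 235641_at read between 3.99 and 26.6 on all arrays, was brighter than only 6.12% of named probe sets, and showed no rise, with differences of -0.10 and -0.081 at 1 and 2 h (adjusted p = 1.00 and 0.945). Which transcript part it covers was not analysed here.

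TRIB2 differed later, and its arrays were spread by replicate number. At 6 h it read 1094, 558, 2010 and 484 in Ind+GSK cells (replicates 1 to 4), against 589, 426, 835 and 332 in GSK cells. Each Ind+GSK array was above its same-numbered GSK array, by 1.86, 1.31, 2.41 and 1.46 times, while the 2 groups overlapped because replicate 3 was high in both. The means were 1036.5 ± 704 with Ind+GSK and 546 ± 220 with GSK (SD, n = 4 each). The log2 difference was 0.76 ± 0.40 (SE; interval -0.04 to 1.55) and was not called by limma without the block (adjusted p = 0.927).

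With the replicate number as a block the same 6 h difference had an SE of 0.16 (interval 0.43 to 1.08) and was called (limma, adjusted p = 0.00204), among 606 genes (3.06%), against 71 (0.359%) without it. The pairing at 6 h rests on correlations of at least 0.162 between the deviations of same-numbered arrays. In 3 of 4 fits with the block on only 3 replicate numbers TRIB2 stayed called: with replicates 1, 2 and 4, which leave out replicate 3, the difference was 0.59 (adjusted p = 0.0482), and without replicate 1 it was 0.72 and no longer called (adjusted p = 0.0676). No change of the TRIB2 difference over time was called by limma's F-test (adjusted p = 1.00, and 0.259 with the block).

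**Figure D3:**
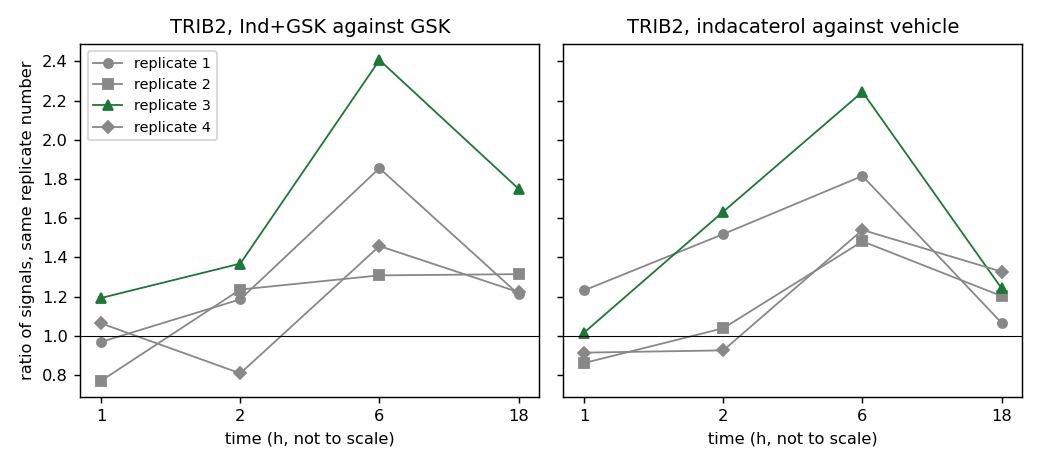
Ratio of TRIB2 signal between arrays of the same replicate number at 1, 2, 6 and 18 h, for Ind+GSK over GSK on the left and indacaterol over vehicle on the right, with replicate 3 in green. All 8 ratios at 6 h lie above 1.3, and those at 1 h fall on both sides of 1. Replicate numbers did not pair the arrays at 1 h on the left or at 2 h on the right.

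Earlier, TRIB2 showed no such separation. At 1 h it read 442, 288, 902 and 405 with Ind+GSK and 456, 374, 756 and 381 with GSK, a log2 difference of -0.02 ± 0.40 (SE). At 2 h the readings were 560, 374, 1163 and 300 with Ind+GSK, against 472, 302, 850 and 370 with GSK. The 2 h difference was 0.17 ± 0.40 (limma, adjusted p = 0.975, and 0.658 with the block), and 3 of 4 pairs were higher with Ind+GSK. At 18 h TRIB2 read 754, 739, 1388 and 664 in Ind+GSK cells and 622, 562, 793 and 543 in GSK cells. All 4 pairs were higher, by 1.21 to 1.75 times, but the difference of 0.43 ± 0.40 was not called with the block (limma, adjusted p = 0.622) or without it (1.00).

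Indacaterol arrays against vehicle arrays also gave TRIB2 its greatest difference at 6 h, as a description. The 2 h difference was greater than the 18 h one here, unlike with Ind+GSK against GSK. The readings at 6 h were 919, 569, 1473 and 518 in indacaterol cells, against 506, 384, 656 and 336 in vehicle cells, and all 4 pairs were higher, by 1.48 to 2.24 times. The log2 differences were 0.00, 0.31, 0.78 and 0.26 at 1, 2, 6 and 18 h (SE 0.40 each). GSK alone did not separate from vehicle, at -0.02, 0.07, 0.17 and 0.03, and Ind+GSK did not separate from indacaterol, at -0.03, -0.06, 0.14 and 0.20. None of these 8 was called by limma (lowest adjusted p above 0.99), with 0 or 1 genes called per comparison (GSK against vehicle at 1 h, 0.00506%), and their 95% intervals together ran from -0.86 to 1.00. The other TRIB2 probe set, 202479_s_at (mean 242), followed 202478_at (mean 624) with r = 0.97 and gave 0.60 ± 0.34 at 6 h, with 4 of 4 pairs higher and the call also missed (limma, adjusted p = 1).

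TRIB2 moved with replicate 3 in all conditions. Its replicate 3 array was the highest in 16 of 16 groups, at 1.38 to 2.83 times the mean of the other 3, with a median of 1.89. TRIB1 was lowest on replicate 3 in 10 of 16 groups and TRIB3 in 9 of 16. How many of all genes were highest or lowest there was not counted, so none of this is shown to be particular to these genes. The epithelial marker sums above, mostly KRT14 on replicate 3 arrays, move with the same arrays, and their part in the TRIB2 level was not tested. In bulk RNA a change in how many cells express a gene and a change per cell cannot be told apart.

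TRIB3 varied little. Over all 64 arrays its probe set 218145_at ran from 1386 to 2116. At 1 h its means were 1756 ± 169 with Ind+GSK and 1829 ± 117 with GSK, at 2 h 1615 ± 77.8 with Ind+GSK and 1664 ± 226 with GSK, and at 18 h 1899 ± 189 with Ind+GSK and 1832 ± 128 with GSK (SD, n = 4 each). The log2 differences were -0.06, -0.03 and 0.05 (SE 0.08 each), and none was called by limma (lowest adjusted p = 0.975).

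The 6 h arrays were the exception. TRIB3 read 1559, 1480, 1386 and 1632 in Ind+GSK cells, against 1656, 1803, 1662 and 1855 in GSK cells. All 4 Ind+GSK arrays lay below all 4 GSK arrays, which held downward for 2% of all genes. The log2 difference was -0.20 ± 0.08 (SE; interval -0.36 to -0.05), with an unadjusted p of 0.0104 but an adjusted p of 0.48 (limma), and 0.0643 with the replicate block, so it was not called. The other probe set, 1555788_a_at (mean 920, r = 0.81 with 218145_at), also separated the groups at 6 h, by -0.12 ± 0.07 (limma, adjusted p = 1). Neither the change over time of the Ind+GSK difference (adjusted p = 1.00) nor the GSK time course (adjusted p = 0.609) was called for TRIB3 by limma's F-test. GSK against vehicle (-0.08 to 0.01) and Ind+GSK against indacaterol (-0.15 to 0.03) were not called at any time.

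Over the 16 group means of log2(signal + 16), the correlation r was -0.32 between TRIB1 and TRIB2, -0.30 between TRIB1 and TRIB3 and -0.15 between TRIB2 and TRIB3, as descriptions over groups that share replicate numbers. Signals of different probe sets are not set against each other as levels.

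Among 22 measured of 25 partners, substrates and relatives of Tribbles proteins, 1 rose with Ind+GSK relative to GSK at 2 h (0.85% of all genes rose then) and 0 were called at 1, 6 or 18 h. With the block 1, 4, 2 and 0 rose over the 4 times (0.415%, 3.12% and 1.91% of all genes rose with the block at 1, 2 and 6 h). The gene called without the block was CEBPB, which encodes C/EBPβ, a sister factor of the main Tribbles substrate, at a mean signal of 8985 with Ind+GSK against 6455 with GSK (0.48 ± 0.12 log2 units, SE, n = 4 each; limma, adjusted p = 0.0278, and 1.81e-07 with the block). The call was lost when any 1 of the 4 replicate numbers was left out (adjusted p = 0.0574 to 0.305). With the block CEBPB was also called at 1 and 6 h (adjusted p = 0.000202 and 0.000962). Replicate numbers did not pair the 1 h arrays, which limits the 1 h results with the block. The 4 genes at 2 h included FOXO1, a forkhead factor regulated by AKT, at 2613 with Ind+GSK against 1316 with GSK (1.01 ± 0.32; adjusted p = 6.59e-08 with the block, 0.152 without it and 0.0472 without it when replicate 3 was left out) and CEBPA, at 118 with Ind+GSK against 66.5 with GSK (0.65 ± 0.39; 0.0297 with the block and 0.762 without). FOXO1 was called with the block at 6 h as well (adjusted p = 3.21e-05). The ligase COP1 moved little, at -0.09, -0.03, -0.15 and 0.07 over the 4 times (SE 0.06 each), and STK40, a Tribbles relative, stayed between -0.26 and 0.12 (SE 0.17). The median difference of the list was 0.08 at 2 h, against 0.04 over all genes.

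Another list held 30 genes of the ATF4, amino acid and endoplasmic reticulum stress responses, the setting in which TRIB3 is best known. Of these, 3 rose at 2 h (0.85% of all genes rose then) and 0 were called at 1, 6 or 18 h. The 3 were HERPUD1, of endoplasmic reticulum-associated degradation, at 4443 with Ind+GSK against 3089 with GSK (0.53 ± 0.10; limma, adjusted p = 0.000774), EIF2AK3, the stress kinase PERK, at 1734 with Ind+GSK against 1009 with GSK (0.77 ± 0.15; 0.00204), and the chaperone DNAJB9 at 2484 with Ind+GSK against 1909 with GSK (0.38 ± 0.09; 0.0203). No other gene of the list, with ASNS, CHAC1 and PSAT1 among them, was called at 2 h without the block. With the block 2, 10, 5 and 0 of the 30 rose over the 4 times, against 0.415%, 3.12% and 1.91% of all genes at 1, 2 and 6 h. Replicate numbers did not pair the 1 h arrays. Without replicate 3 the counts were 0, 5, 3 and 0. Without replicate 1 or without replicate 2, 1 of the 30 rose at 2 h (HERPUD1 without replicate 1, and EIF2AK3 without replicate 2). Of all genes, 98 and 47 were called at 2 h in those fits, against 183 with all arrays. In all fits with an array or replicate number left out, 47 to 220 genes were called at 2 h and 25 to 87 at 6 h. The DNAJB9 call was also lost without replicate 4 and with equal array medians (adjusted p = 0.152 and 0.102). ATF4 itself differed by -0.10, -0.06, -0.06 and 0.16, and DDIT3, which encodes CHOP, by -0.27, 0.01, 0.04 and 0.10, with none called.

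Of 21 measured of 23 targets of the cyclic AMP factor CREB, 4 rose at 1 h (0.137% of all genes rose then), 11 at 2 h (0.85%) and 0 at 6 or 18 h, with none lower. The counts were 10, 17, 9 and 0 with the block (0.415%, 3.12% and 1.91% of all genes at 1, 2 and 6 h). Replicate numbers did not pair the 1 h arrays. The counts were 3, 9, 1 and 0 without replicate 3, and 1 and 3 at 1 and 2 h without replicate 2, the fewest. Without replicate 2, 5 and 47 of all genes were called at 1 and 2 h, against 28 and 183 with all arrays. RGS2, a brake on G protein signalling, was at 6892 with Ind+GSK against 1807 with GSK at 1 h (1.91 ± 0.28; limma, adjusted p = 3.76e-05), the kinase SIK1 at 4656 with Ind+GSK against 1419.6 with GSK (1.84 ± 0.38; 0.0222) and the nuclear receptor NR4A3 at 893 with Ind+GSK against 130.2 with GSK (2.62 ± 0.58; 0.0326). The NR4A3 call was lost when any 1 replicate number was left out and with a pseudocount of 1 (highest adjusted p = 0.449), and the SIK1 call without replicate 1, 2 or 4 (highest adjusted p = 0.515). The list's median difference was 0.74, 0.99, 0.51 and 0.18 over the 4 times, against -0.02, 0.04, 0.00 and 0.03 over all genes. Of 22 measured other immediate early and feedback genes, 3 rose at 1 h (MYC, KLF6 and SPRY2) and 4 at 2 h, against the same 0.137% and 0.85% of all genes (5 with the block at 1 h and 8 at 2 h, and, without replicate 1, 2 or 4, 0 at 1 h and 1, 0 and 2 at 2 h), while EGR1 (0.0759% of all genes fell at 2 h and 0.0809% at 6 h) fell by 1.39 ± 0.19 at 2 h and by 0.91 ± 0.19 at 6 h (limma, adjusted p = 2.99e-06 and 0.00668), the 6 h call being lost without replicate 2 or without replicate 3. Without replicate 1 and 4, 11 and 10 of all genes were called at 1 h, and 98 and 112 at 2 h. In all fits with an array or replicate number left out, 5 to 25 genes were called at 1 h. The range was 47 to 220 at 2 h and 25 to 87 at 6 h. These gene lists were drawn up with earlier results of these data known, and their counts support nothing about the Tribbles genes.

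The genes whose group means ran most like those of TRIB1, by Pearson's r over 16 groups and among 13453 genes with a mean signal of at least 100, were the cytokine IL6 (0.983), the peptide precursor EDN1 (0.976), the kinase PIM3 (0.971), ZNF331 (0.969) and the chemokine CXCL2 (0.969). These groups include the Ind+GSK and GSK arrays, so the genes' differences there are descriptions with no test. Between Ind+GSK and GSK at 1 h, the log2 difference was 2.49 ± 0.47 for IL6, 1.44 ± 0.18 for EDN1, 0.50 ± 0.38 for PIM3, 1.43 ± 0.26 for ZNF331 and 1.97 ± 0.40 for CXCL2 (SE, n = 4 each), against 1.80 ± 0.19 for TRIB1.

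For TRIB2 the nearest were TMTC1 (0.980), the doublecortin-like kinase DCLK1 (0.967), the secreted Wnt antagonist SFRP1 (0.967), the matrix proteoglycan VCAN (0.966) and the collagen COL4A3 (0.957). At 6 h their differences between Ind+GSK and GSK ran from 0.55 to 0.72, against 0.76 for TRIB2. The difference was 0.63 ± 0.14 for TMTC1, 0.72 ± 0.43 for DCLK1, 0.55 ± 0.23 for SFRP1, 0.59 ± 0.54 for VCAN and 0.55 ± 0.32 for COL4A3 (SE, n = 4 each), again with no test.

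**Figure D4:**
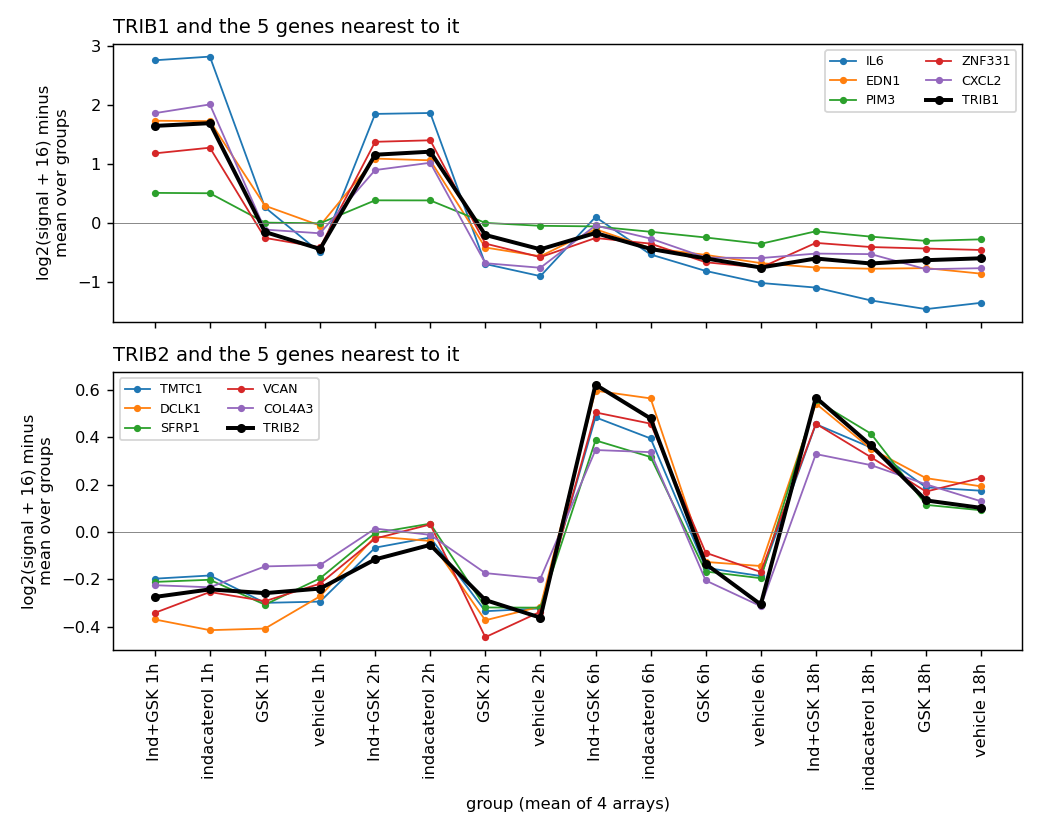
Mean log2(signal + 16) of each of 16 groups, minus the gene's mean over groups, for TRIB1 (black, top) and TRIB2 (black, bottom) with the 5 genes of greatest correlation to each. The TRIB1 set peaks with Ind+GSK and indacaterol at 1 and 2 h, and the TRIB2 set with the same treatments at 6 and 18 h.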

How the data were processed

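Biotin-labelled cRNA from 64 RNA samples was hybridised to Affymetrix arrays of 54675 probe sets. The authors deposited linear probe-set intensity values, made with PLIER and version 4 of the Transcriptome Analysis Console per the submitters' processing notes, with background method and settings not given in the sources used here. Array medians ran from 101 to 127, and no 2 arrays held identical values. The number of arrays, 4 per group, limits the precision.

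Values were used as log2(signal + 16). Of the probe sets 62 were controls, 41091 carried 1 symbol, 1801 several and 11721 none. The brightest probe set on the mean log2 scale stood for each of 19775 genes. limma 3.58.1 (R 4.3.3) fitted a mean for each of 16 groups with 48 residual degrees of freedom, two-sided, with Benjamini-Hochberg adjustment. A fold change on this scale understates that of dim genes. The code was tested on simulated data. Replicate numbers were taken to pair groups where all 4 correlations of array deviations exceeded 0.1, which held for Ind+GSK against GSK at 2, 6 and 18 h (lowest 0.278, 0.162 and 0.265) but not at 1 h (-0.165), and for the GSK times (lowest 0.479). This pairing did not hold for GSK against vehicle (lowest -0.053) or indacaterol against vehicle (0.080) at 2 h. Nor did it hold for Ind+GSK against indacaterol at 1 h (0.085). Counts and ratios of same-numbered arrays there, and for Ind+GSK against GSK at 1 h, are descriptions only. In that 1 h comparison with GSK the correlations were -0.165, 0.530, 0.712 and 0.360 for replicates 1 to 4, so only replicate 1 fell short. The correlation comes from the data, since no label says what a number marks.

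The members and gene lists were chosen with earlier results of these data known. Named genes were the members, called members of the lists (at most 5 per list and time), list genes with a role at a Tribbles protein, and the 5 genes of greatest correlation with each member. Names and positions came from platform annotation updated through RefSeq gene IDs (GRCh38.p14). Promoters of TRIB2 and TRIB3 were searched, and that of TRIB1 was not analysed here. Alternatives were other pseudocounts (1 and 64), quantile and median scaling, a filter on dim genes, replicate blocks, other probe sets and leaving out arrays.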

Additional observations from a re-analysis of the deposited data

Results flagged for a closer look

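Among 48 groups of 4 arrays examined (3 genes in 16 groups), where chance flags about 1 group in 20, 6 had an array far from the other 3. For TRIB2 this was replicate 3 in Ind+GSK cells at 18 h (1388), in indacaterol cells at 18 h (1014) and in vehicle cells at 1 h (763) and 2 h (705), and replicate 3 was the highest array in the other 12 groups too. For TRIB3 it was replicate 4 in Ind+GSK cells at 2 h (1731) and in vehicle cells at 1 h (1972). The TRIB1 difference between Ind+GSK and GSK differed between the 4 times (limma's F-test, adjusted p = 8.88e-05). It was positive in 4 of 4 same-numbered pairs at 1, 2 and 6 h and in 2 of 4 at 18 h. Replicate numbers did not pair the 1 h arrays.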

How the results depend on the processing

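Pseudocounts of 1 and 64, equal array medians and the filter on dim genes moved no call on a Tribbles gene. Quantile normalization called the TRIB1 time course in GSK cells (adjusted p = 0.0465), and gave 156 genes called at 6 h and 40 over time, against 71 and 15. The replicate block called that TRIB1 time course (0.0189) and TRIB2 at 6 h (0.76), with 95, 685, 606 and 19 genes called for Ind+GSK against GSK at 1, 2, 6 and 18 h and 260 over time, against 28, 183, 71, 0 and 15. It changed no other call on a Tribbles gene. As a random effect the block gave 0.0243 for the TRIB1 time course, 0.76 for TRIB2 (adjusted p = 0.0457) and counts of 66, 513, 343, 1 and 133. In blocks on 3 replicate numbers, tried after replicate 3 was seen to stand apart, TRIB2 at 6 h was called at 0.88 (without replicate 2), 0.59 (without 3) and 0.83 (without 4). The TRIB1 time course in GSK cells was called in 1 of these 4 fits, without replicate 2 (0.00394), and the TRIB2 one without replicate 3 (0.025). The cause was not tested. The dim TRIB1 probe set 235641_at turned the differences at 1 and 2 h to -0.10 and -0.081 and gave an adjusted p of 1 for the change over time. With a replicate number or an array left out, 5 to 25 genes were called at 1 h, 47 to 220 at 2 h, 25 to 87 at 6 h and 4 to 61 over time, and the adjusted p of the TRIB1 change over time ran from 7.80e-07 to 0.173. Fewer arrays were fitted there. Of 22 values per other probe set, 202479_s_at and 239818_x_at changed none, and 1555788_a_at moved 1 value that had no test.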

Other observations

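The genes nearest to TRIB3 over the 16 group means were COQ3 (r = 0.950), an enzyme of coenzyme Q synthesis, FAM118B (0.945), the cullin CUL2 (0.942), ARHGEF18 (0.939) and GNPDA2 (0.937). They were chosen on groups that include the Ind+GSK and GSK arrays, so their differences there are descriptions with no test. At 6 h the log2 differences between Ind+GSK and GSK were -0.28, -0.24, -0.14, -0.20 and -0.22, against -0.20 for TRIB3. Their group means spanned 0.28 to 0.46 log2 units over all groups.

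On replicate 3 arrays TRIB1 ran from 219 to 2212 and TRIB3 from 1386 to 1897, against 315 to 2265 and 1446 to 2116 on the other arrays. For TRIB1 the ratio of the replicate 3 array to the mean of the other 3 lay between 0.523 and 1.33 (median 0.771) over 16 groups, and for TRIB3 between 0.874 and 1.12 (median 0.950).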
